A study of Homo sapiens with 20 samples.

Results

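The aryl hydrocarbon receptor, its partner, its repressor and 4 of its target genes were followed in AC16 cells after exposure to e-cigarette aerosol. The set was AHR, ARNT, AHRR, CYP1A1, CYP1B1, TIPARP and NQO1, chosen by gene symbol, and all 7 were found among the 58735 Ensembl identifiers counted. AC16 is an established human line, made by fusing ventricular cardiomyocytes with transformed fibroblasts, that divides in culture. An air–liquid interface was used, which leaves the upper face of the cells open to the gas. The control group met filtered air (5 mRNA libraries) and the exposed group met e-cigarette aerosol (5 mRNA libraries), and both were grown in DMEM/F12 with serum and penicillin-streptomycin. Libraries are numbered 1 to 5 in each group, and nothing in the labels says that they came from separate cultures, so p-values measure the spread between these libraries, which may be technical. The sources used here give no liquid, dose or duration for the aerosol.

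The aryl hydrocarbon receptor (AHR) is a transcription factor that waits in the cytosol in a complex with HSP90 and p23. Flat aromatic molecules such as polycyclic hydrocarbons of smoke, dioxins and some tryptophan products bind it, and it then enters the nucleus and pairs with ARNT. The pair reads the xenobiotic response element and switches on CYP1A1 and CYP1B1, which oxidise the ligand, AHRR and TIPARP, which switch the receptor off again, and NQO1, which reduces quinones. CYP1A1 is widely used as a readout of exposure to tobacco smoke.

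The start-site windows of 4 target genes are shown because the receptor acts on its targets through the xenobiotic response element. They come from RefSeq (GRCh38.p14), run 5′ to 3′ on the strand of the gene, and cover 250 bases before to 50 bases after the gene start. Capitals mark the core GCGTG or its reverse complement CACGC.
CYP1A1, chr15:74725479-74725778, - strand: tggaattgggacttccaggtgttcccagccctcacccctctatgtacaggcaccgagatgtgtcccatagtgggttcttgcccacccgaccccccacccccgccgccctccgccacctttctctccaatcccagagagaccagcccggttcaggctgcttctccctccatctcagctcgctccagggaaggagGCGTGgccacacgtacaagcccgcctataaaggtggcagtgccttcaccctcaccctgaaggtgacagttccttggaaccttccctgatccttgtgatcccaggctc
TIPARP, chr3:156674340-156674639, + strand: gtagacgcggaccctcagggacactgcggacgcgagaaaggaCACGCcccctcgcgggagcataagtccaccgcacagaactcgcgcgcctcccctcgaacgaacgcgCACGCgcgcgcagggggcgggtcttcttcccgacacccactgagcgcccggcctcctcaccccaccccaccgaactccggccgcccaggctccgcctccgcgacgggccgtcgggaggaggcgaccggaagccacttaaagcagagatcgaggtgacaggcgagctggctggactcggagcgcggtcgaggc
AHRR, chr5:321464-321763, + strand: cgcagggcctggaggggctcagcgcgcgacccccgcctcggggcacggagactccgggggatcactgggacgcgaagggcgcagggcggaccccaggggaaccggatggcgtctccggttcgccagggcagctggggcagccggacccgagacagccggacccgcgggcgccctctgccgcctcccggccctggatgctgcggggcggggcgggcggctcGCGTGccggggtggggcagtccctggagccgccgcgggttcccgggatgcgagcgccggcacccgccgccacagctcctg
NQO1, chr16:69726511-69726810, - strand: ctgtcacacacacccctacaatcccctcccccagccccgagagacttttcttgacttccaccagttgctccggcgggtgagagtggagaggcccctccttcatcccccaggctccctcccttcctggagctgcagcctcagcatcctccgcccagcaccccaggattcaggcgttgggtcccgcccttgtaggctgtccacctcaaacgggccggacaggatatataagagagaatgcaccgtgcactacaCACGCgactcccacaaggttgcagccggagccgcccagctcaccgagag
The core was found once in the CYP1A1, AHRR and NQO1 windows and 2 times in the TIPARP window. Among all 35116 RefSeq windows of this length, 36.5% hold GCGTG on one strand or the other, so its presence is common. The longer form TNGCGTG, found in 5.51% of windows, occurred once in the AHRR window and once in that of NQO1. Factors that pair hypoxia-inducible proteins with ARNT read the same GCGTG letters as one form of their own core, so the motifs overlap. The antioxidant response element core TGACNNNGC, held by 13.3% of windows, was in none of the 4. Other start-site windows of the members were searched but are not shown. A second AHRR window (chr5:322360-322659) held GCGTG 2 times, without the longer form. The TIPARP windows at chr3:156674676-156674975 and chr3:156676414-156676713 held 0. The AHR window held GCGTG 1 time, and the ARNT window held 0, with TGACNNNGC 1 time. Sequence of these genes outside their start-site windows was not searched, so elements of either kind farther away would be missed.

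The libraries were deep but not alike. Gene counts summed to between 65902331 and 88806394 in filtered air and between 60482726 and 72099157 after the aerosol. Mitochondrially encoded genes took 7.75 to 10.3% of counts in filtered air and 12.4 to 19.5% after the aerosol, and the 95% Wilson interval of such a share was at most 0.0195 percentage points wide, for counting error only. Aerosol libraries 4 and 5 had the highest shares (18.1 and 19.5%) and stood apart from the other 8 in a principal component analysis (59.4 and 89.1 on component 1, against -35.3 to 11.3). Of 14 cardiomyocyte markers, 7 were listed at 0 in every library (TNNT2, MYH6, MYH7, MYL2, MYL7, NPPB and NKX2-5), and TTN and GATA4 alone were at 1 CPM (counts scaled to a common library size) or more in every library. Summed, the 14 reached 28.4 to 51.7 CPM in filtered air and 37.3 to 65.7 CPM after the aerosol. The other 7 were tested, and 2 of them averaged 1 CPM or more. Aerosol against filtered air, 2 were below 0 and the median log2 fold change was 1.19. TTN (0.61) and PLN (1.89, at 4 to 83 counts per library) were higher at an unadjusted p under 0.05, and 0 were lower. None passed after adjustment (edgeR adjusted p = 0.121 and 0.182), where 3.01% of all genes tested did. All 10 fibroblast markers were above a mean of 1 CPM, with sums of 2564 to 3197 CPM and 2280 to 3029 CPM, and FAP, a fibroblast protease, rose by 0.63 ± 0.14 on the log2 scale (standard error, edgeR adjusted p = 0.0342), a call lost in 10 of 21 alternatives. The list as a whole did not follow FAP, with 6 of 10 markers below 0, a median of -0.20, and 4 lower and 1 higher at an unadjusted p under 0.05. Of all genes tested 50.4% were below 0, 18.3% had an unadjusted p under 0.05 in either direction, and 9.48% had one on the lower side. The 4 lower markers were COL1A1 (-0.22), COL1A2 (-0.24), THY1 (-0.45) and POSTN (-0.98), none of which passed after adjustment (edgeR adjusted p of 0.170 to 0.255). Endothelial markers summed to at most 3.28 CPM and epithelial markers to at most 5.11 CPM in any library. Of 6 leukocyte markers only CD68, a lysosomal protein of many cell types, passed 1 CPM, at 49.1 ± 9.68 CPM in the 5 filtered air libraries and 45.6 ± 8.03 CPM in the 5 aerosol libraries (mean ± SD).

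None of the 7 genes changed after the aerosol by the test used here. Each passed the low-count filter, and 0 of 7 had an adjusted p under 0.05 (edgeR quasi-likelihood test, Benjamini-Hochberg over 20166 genes), where 3.01% of all genes tested did, 1.62% higher and 1.39% lower after the aerosol. DESeq2 and limma-voom called 0 of 7 as well. At an unadjusted p under 0.05 there were 3 of 7, ARNT, TIPARP and NQO1, all lower after the aerosol, against 18.3% of all genes tested in either direction and 9.48% on the lower side. With upper-quartile scaling that count was 0 of 7, at an unadjusted edgeR p of 0.0940 for ARNT, 0.0922 for TIPARP and 0.0652 for NQO1. Across all genes tested 608 changed, 327 upwards and 281 downwards, a split that became 482 and 171 with upper-quartile scaling, 481 and 266 when only genes at 1 CPM in 5 libraries were kept, and 244 and 318 by library size alone. The median log2 fold change of the 7 was -0.26, and that of all genes tested was 0.00 to 2 decimals. RNA per cell and the number of cells cannot be told apart in such bulk libraries.

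**Figure D1:**
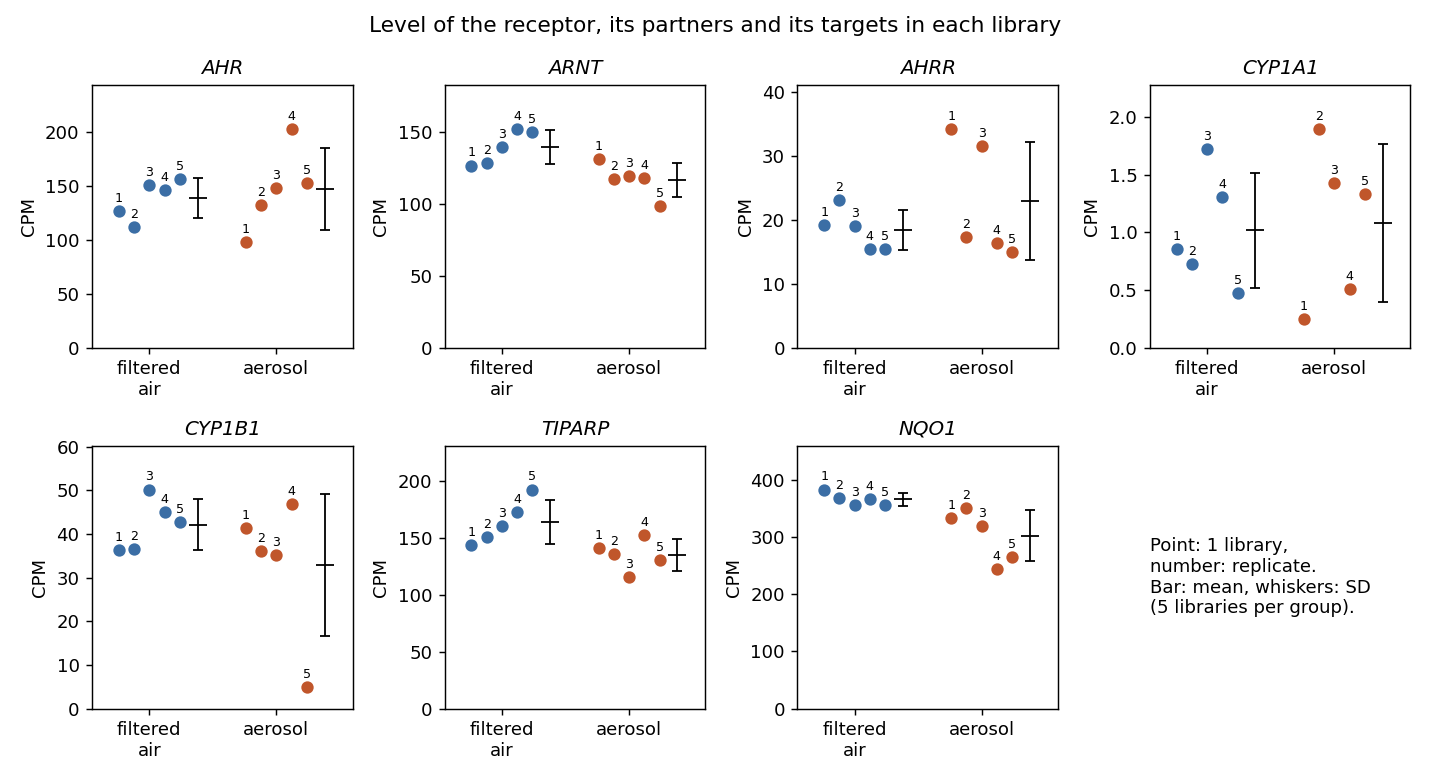
Level of each of the 7 genes in CPM (y axis, linear from 0) in the 5 filtered air and 5 aerosol libraries. Points are libraries numbered by replicate, bars are means and whiskers SD. The groups overlap for 6 of the 7 genes, NQO1 lies lower in every aerosol library, and the CYP1B1 point of aerosol library 5 sits at 4.90 CPM.

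The receptor itself was well expressed in both groups. AHR (chromosome 7, 17298652 to 17346147) stood at 127, 112, 151, 147 and 156 CPM in filtered air libraries 1 to 5. After the aerosol it stood at 98.4, 132, 148, 203 and 153 CPM in libraries 1 to 5. Aerosol library 1 was the lowest and aerosol library 4 the highest of all 10, so the aerosol group enclosed the filtered air group. Means were 138 ± 18.6 and 147 ± 37.9 CPM (SD, n = 5 per group), and the coefficient of variation was 13.4% in filtered air and 25.8% after the aerosol. The log2 fold change was 0.08 ± 0.17 (standard error) with a 95% interval from -0.27 to 0.44 (edgeR adjusted p = 0.856). Its sign was not fixed, at -0.068 without aerosol replicate 4 and -0.14 without aerosol replicates 4 and 5 together. No call was made under either.

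ARNT (chromosome 1, 150809713 to 150876599), the nuclear partner that AHR shares with the hypoxia-inducible factors, was lower on average after the aerosol. It stood at 127, 128, 140, 152 and 150 CPM in filtered air libraries 1 to 5. In aerosol libraries 1 to 5 it stood at 131, 117, 119, 118 and 98.1 CPM. Aerosol libraries 2 to 5 lay below every filtered air library, and aerosol library 1 lay within the filtered air range. Means were 139 ± 11.9 CPM in filtered air and 117 ± 11.8 CPM after the aerosol (SD, n = 5 per group). Aerosol against filtered air, the log2 fold change was -0.26 ± 0.10 with a 95% interval from -0.47 to -0.04, and it did not pass after adjustment (edgeR adjusted p = 0.193). Without aerosol replicates 4 and 5 it was -0.19 (edgeR adjusted p = 0.366).

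AHRR (chromosome 5, 321714 to 438285) encodes the repressor that competes with AHR for ARNT. Its levels were 19.2, 23.1, 19.1, 15.4 and 15.5 CPM in filtered air libraries 1 to 5. After the aerosol they were 34.3, 17.4, 31.6, 16.4 and 15.0 CPM in libraries 1 to 5. Aerosol libraries 1 and 3 thus stood above every filtered air library, and the other 3 aerosol libraries lay in or just under the filtered air range. The group means were 18.5 ± 3.17 and 22.9 ± 9.22 CPM (SD, n = 5 per group). On average the log2 fold change was 0.31 ± 0.25 with a 95% interval from -0.23 to 0.85 (edgeR adjusted p = 0.574). It was 0.12 without aerosol replicate 1, 0.16 without aerosol replicate 3, and 0.58 without aerosol replicates 4 and 5, where the edgeR adjusted p was 0.216. In aerosol library 1, where AHRR was highest, AHR and CYP1A1 were at their lowest of the 10 libraries.

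CYP1A1 (chromosome 15, 74719542 to 74725528), the cytochrome P450 most strongly induced by AHR ligands, was barely counted in either group. Filtered air libraries 1 to 5 held 74, 63, 144, 88 and 44 counts for it. Aerosol libraries 1 to 5 held 16, 132, 86, 33 and 72 counts. Counting error alone gives the lowest of these an exact 95% Poisson interval of 9.15 to 26 counts and the highest one of 121 to 170 counts.

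On the scaled level CYP1A1 was at 0.857, 0.726, 1.72, 1.31 and 0.479 CPM in filtered air libraries 1 to 5. The aerosol libraries 1 to 5 were at 0.251, 1.90, 1.43, 0.512 and 1.33 CPM. Both the lowest and the highest library belonged to the aerosol group, and the filtered air values lay inside that range. With means of 1.02 ± 0.495 and 1.09 ± 0.683 CPM (SD, n = 5 per group), the log2 fold change was 0.09 ± 0.62 (edgeR adjusted p = 0.964), and its 95% interval ran from -1.26 to 1.44. That interval takes in a 2-fold change in either direction. Leaving out 1 library at a time moved the value between -0.21 and 0.36, so no direction can be given.

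CYP1B1 (chromosome 2, 38067509 to 38076151), the related cytochrome P450 that also oxidises steroid hormones, was well counted in 9 libraries. It stood at 36.5, 36.5, 50.2, 45.1 and 42.7 CPM in filtered air libraries 1 to 5. Aerosol libraries 1 to 4 stood at 41.3, 36.2, 35.3 and 46.9 CPM. Aerosol library 5 stood at 4.90 CPM, from 265 counts, where the other 9 libraries held between 2120 and 4202. Mean levels were 42.2 ± 5.89 CPM in filtered air and 32.9 ± 16.3 CPM after the aerosol (SD, n = 5 per group). The log2 fold change over all 10 libraries was -0.36 ± 0.43 with a 95% interval from -1.31 to 0.59 (edgeR adjusted p = 0.739). Without aerosol replicate 5 it was -0.09 ± 0.15 (edgeR adjusted p = 0.829).

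TIPARP (chromosome 3, 156674590 to 156706770) encodes an ADP-ribosyltransferase that modifies AHR and limits its activity. In filtered air libraries 1 to 5 it stood at 144, 151, 161, 174 and 193 CPM. In aerosol libraries 1 to 5 it stood at 141, 136, 115, 153 and 131 CPM. The other 4 lay below every filtered air library, and aerosol library 4 lay above 2 of them. It averaged 165 ± 19.4 CPM in filtered air and 135 ± 13.8 CPM after the aerosol (SD, n = 5 per group). Between the groups the log2 fold change was -0.28 ± 0.11 with a 95% interval from -0.51 to -0.05 (edgeR adjusted p = 0.180). The lowest adjusted p it reached was 0.0977, by edgeR with library size alone as the scaling.

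NQO1 (chromosome 16, 69709401 to 69726560), a quinone reductase driven by both AHR and NRF2, was the most evenly expressed of the 7 in filtered air, with a coefficient of variation of 3.03%. It stood at 383, 368, 356, 367 and 356 CPM in filtered air libraries 1 to 5. Aerosol libraries 1 to 5 stood at 333, 350, 319, 244 and 265 CPM. NQO1 was the 1 member of 7 whose groups did not overlap, which held for 7.45% of all genes tested, and on the lower side for 3.93%. From a mean of 366 ± 11.1 CPM in filtered air to one of 302 ± 45.4 CPM after the aerosol (SD, n = 5 per group), the log2 fold change was -0.27 ± 0.10 with a 95% interval from -0.50 to -0.05 (edgeR adjusted p = 0.176). That is a ratio of 0.827, with an interval from 0.708 to 0.965.

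The lowest NQO1 levels were those of aerosol libraries 4 and 5, which also had the highest mitochondrial shares. MALAT1, a nuclear noncoding RNA, was at 16390 and 44762 CPM in those 2 libraries, at 7486 to 10538 CPM in aerosol libraries 1 to 3 and at 2797 to 3765 CPM in filtered air. Without the pair, the log2 fold change of NQO1 was -0.14 (edgeR adjusted p = 0.386). With mitochondrially encoded genes, MALAT1 and NEAT1 taken out of the counts and scaling it was again -0.27 (edgeR adjusted p = 0.177). The part of library make-up in the difference was not tested beyond these values.

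**Figure D2:**
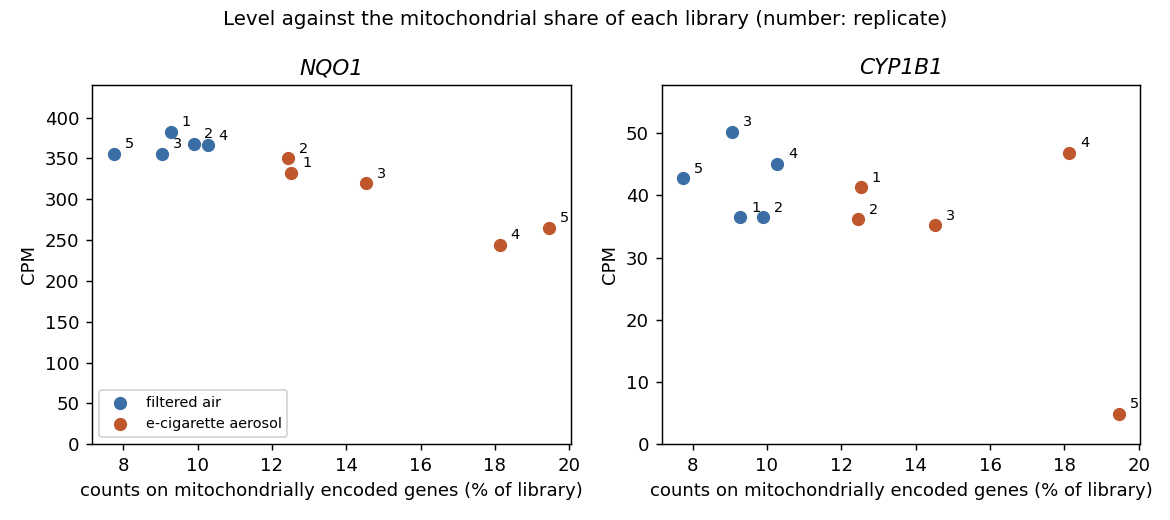
NQO1 and CYP1B1 levels in CPM (y axes, linear from 0) against the percentage of counts on mitochondrially encoded genes (x axes), 1 point per library, numbered by replicate. Aerosol libraries 4 and 5, at 18.1 and 19.5%, hold the lowest NQO1 levels, and of these 2 only library 5 is low in CYP1B1.

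Upper ends of the 95% interval, as ratios, were 1.36 for AHR, 0.973 for ARNT, 0.965 for TIPARP and 0.965 for NQO1, so a doubling lay outside the interval of each. They were 1.8 for AHRR, 1.51 for CYP1B1 and 2.72 for CYP1A1. A 2-fold rise therefore lay inside the interval of CYP1A1 alone, the gene with the fewest counts. Lower ends were 0.404 for CYP1B1 and 0.419 for CYP1A1, so a 2-fold fall lay inside the intervals of both, and they were 0.701 to 0.855 for the other 5. The intervals are not adjusted for the number of genes.

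**Figure D3:**
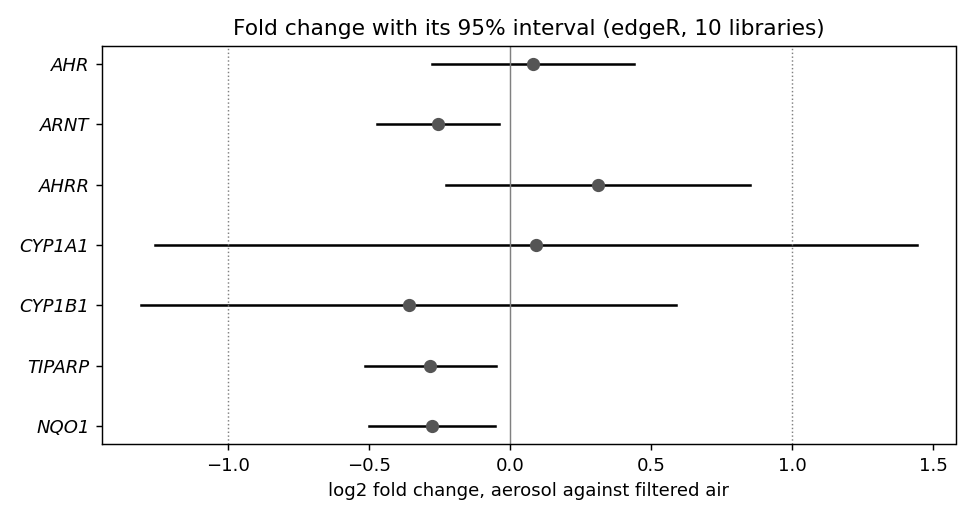
Log2 fold change of each gene, aerosol against filtered air (x axis), with its unadjusted 95% interval from edgeR over 10 libraries. The dotted lines mark a 2-fold change. The intervals of ARNT, TIPARP and NQO1 lie below 0, none of the 7 passed after adjustment, and that of CYP1A1 runs from -1.26 to 1.44.

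Reads of antisense genes could add to 2 of the members, since no source used here says whether counting used strand. CYP1B1-AS1 had 31 to 151 counts per library and TIPARP-AS1 had 0 to 34, against 265 to 4202 for CYP1B1 and 6944 to 17739 for TIPARP.

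Among the proteins that hold and destroy the receptor, 1 of 8 fell and none rose, with a median log2 fold change of -0.19, where 1.39% of all genes tested fell and 1.62% rose. The number called in this list ran from 0 to 3 over the 21 alternatives. DDB1, an adaptor of the ubiquitin ligase that AHR can join, fell from 319 ± 24.3 to 249 ± 19.3 CPM (n = 5 per group), which is -0.36 ± 0.09 on the log2 scale (edgeR adjusted p = 0.0419). This call was lost in 13 of 21 alternatives, with an adjusted p of at most 0.124 in edgeR, limma and DESeq2.

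Of 13 other members of the bHLH-PAS family, to which AHR and ARNT belong, 10 were tested. None passed (edgeR adjusted p under 0.05), where 3.01% of all genes tested did. At an unadjusted p under 0.05 there were 2, CLOCK higher and EPAS1 lower (log2 fold change -0.30), against 18.3% of all genes tested in either direction. HIF1A, a hypoxia-inducible partner of ARNT, was at 1088 ± 151 and 1200 ± 199 CPM, and CLOCK, a circadian activator, was at 147 ± 24.5 and 193 ± 14.8 CPM (n = 5 per group). The CLOCK log2 fold change was 0.39 ± 0.12 (edgeR adjusted p = 0.101). Among 9 coactivators and corepressors none passed, beside the same 3.01% of all genes tested, and the median was 0.17. The 2 at an unadjusted p under 0.05 were NCOA2 (log2 fold change 0.25) and NCOA3, both higher, beside the same 18.3% of all genes tested. EP300, a histone acetyltransferase, was at 0.17 ± 0.08 and NCOA3, a receptor coactivator, at 0.32 ± 0.13 on the log2 fold change scale (edgeR adjusted p = 0.293 and 0.216).

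Of 18 further genes described as AHR targets, 7 were left out by the low-count filter, including CYP1A2, UGT1A1, UGT1A6 and ALDH3A1, none of which exceeded 60 counts in a library. Of the 11 tested, 1 fell and none rose, where 1.39% of all genes tested fell and 1.62% rose, and the median was -0.07. At an unadjusted p under 0.05, 18.3% of all genes tested passed in either direction and 9.48% on the lower side. In this list 2 were lower and 0 higher at that threshold. They were STC2 and SLC7A5 (log2 fold change -0.46, edgeR adjusted p = 0.162). STC2, a secreted glycoprotein, fell from 199 ± 10.6 to 150 ± 12.7 CPM (n = 5 per group), which is -0.41 ± 0.09 on the log2 scale (edgeR adjusted p = 0.0279). It is also known as a hypoxia-responsive gene. The call held in 14 of 21 alternatives, and the adjusted p was at most 0.0825 in the other 7.

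NRF2 is the other activator of NQO1. Of 18 tested genes of its system, 1 fell and none rose, with a median of -0.26 and 13 below 0. Of all genes tested 1.39% fell, 1.62% rose and 50.4% were below 0. TALDO1, an enzyme of the pentose phosphate pathway, fell from 95 ± 12.9 to 67.2 ± 8.24 CPM (n = 5 per group), which is -0.50 ± 0.12 on the log2 scale (edgeR adjusted p = 0.0499). That value lies at the threshold, and the call was lost in 16 of 21 alternatives. An unadjusted p under 0.05 was reached by 18.3% of all genes tested in either direction and by 9.48% on the lower side. The list held 5 lower genes and 1 higher at that threshold. Besides TALDO1 these were HMOX1, GCLM, SRXN1 and AKR1C1 on the lower side and BACH1, the repressor of NRF2 targets, on the higher side. Among 5 other quinone reductases none passed (edgeR adjusted p under 0.05), where 3.01% of all genes tested did. All 5 lay below 0, and 3 (CBR1, CBR3 and AIFM2) had an unadjusted p under 0.05. CBR1, a carbonyl reductase, was at -0.34 ± 0.14 and CRYZ, a quinone oxidoreductase, at -0.06 ± 0.18 on the log2 scale.

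The 2 lists around the cytochromes and ligands held no call, where 3.01% of all genes tested were called. None of 6 electron donors of microsomal cytochrome P450 passed (edgeR adjusted p under 0.05). The 2 with an unadjusted p under 0.05 were CYB5R3 and PGRMC1 (-0.21 on the log2 scale), against 18.3% of all genes tested in either direction. CYB5R3, a cytochrome b5 reductase, went from 125 ± 12.1 to 94.8 ± 15.0 CPM (n = 5 per group), which is -0.40 ± 0.12 on the log2 scale (edgeR adjusted p = 0.100), and CYB5B was at 0.33 ± 0.41. Of 12 enzymes that make or consume tryptophan-derived AHR ligands, 9 were tested and none passed. The 1 at an unadjusted p under 0.05 was AFMID (-0.75 on the log2 scale), beside the same 18.3% of all genes tested. The ligand-forming IDO1 and TDO2 had at most 33 and 86 counts in any library, and IDO2 was listed at 0 in all 10. QPRT, which uses the pathway's quinolinate, was at -0.56 ± 0.49 and KYAT3, a transaminase, at -0.17 ± 0.17 on the log2 scale.

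The relatives of TIPARP included PARP14, whose call survived all 21 alternatives. Among 21 tested ADP-ribosyltransferases and ADP-ribose hydrolases 1 rose and none fell, with a median of 0.08, where 1.62% of all genes tested rose and 1.39% fell. At an unadjusted p under 0.05 there were 4 higher and 2 lower, against 18.3% of all genes tested in either direction. Between 1 and 4 were called over the 21 alternatives. PARP1, a DNA damage sensor, was at -0.30 ± 0.08 and PARP9, a partner of a ubiquitin ligase, at 0.46 ± 0.15 on the log2 scale (edgeR adjusted p = 0.0571 and 0.112). PARP14, a mono-ADP-ribosyltransferase also known as an interferon-stimulated gene, stood at 70.4, 72.6, 72.7, 71.0 and 81.3 CPM in filtered air libraries 1 to 5. It stood at 96.2, 104, 106, 123 and 115 CPM in aerosol libraries 1 to 5, above every filtered air library. Its log2 fold change was 0.57 ± 0.10 (edgeR adjusted p = 0.0119), and it kept its call in all 21 alternatives, with values from 0.46 to 0.65 and an adjusted p of at most 0.0440.

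**Figure D4:**
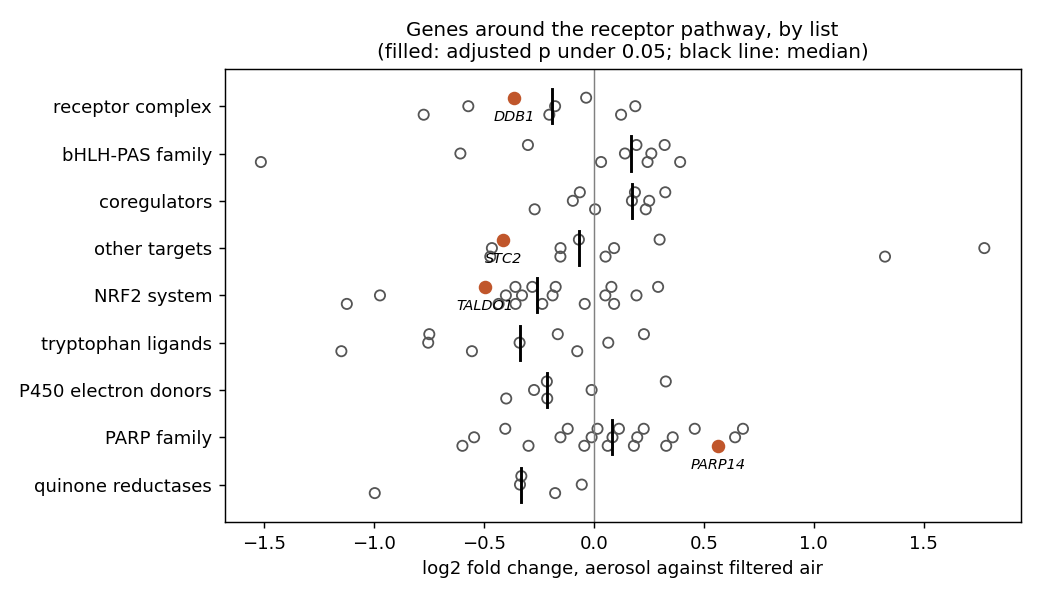
Log2 fold change, aerosol against filtered air (x axis), of every tested gene in 9 lists around the receptor (rows). Filled points passed an edgeR adjusted p of 0.05 and black lines are list medians. Of all the points only DDB1, STC2 and TALDO1 (lower) and PARP14 (higher) are filled, and the medians lie between -0.34 and 0.17.

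Each member was set against 10970 genes at 5 CPM or more on average to find the 2 whose log2 CPM followed it most closely over the 10 libraries. These genes were picked as the highest of that many, so the coefficients are descriptions with no p-value. NQO1 was followed by SCAND1 and GMPPA (Pearson r = 0.989 for both, Spearman rho = 0.879 and 0.855). TIPARP was followed by KDELR3 and ATIC (r = 0.973 and 0.956, rho = 0.976 for both). For ARNT they were ZNF627 and JPT1 (r = 0.957 and 0.947, rho = 0.927 and 0.952), and for AHR they were NUS1 and THAP5 (r = 0.928 and 0.916, rho = 0.758 and 0.964). AHRR was matched best by ZNF519 and TMPPE (r = 0.912 and 0.878, rho = 0.891 and 0.879), and CYP1A1 by MTAP and ZNF117 (r = 0.880 and 0.840, rho = 0.806 and 0.842). The closest to CYP1B1 were QPRT and KIAA1586 (r = 0.987 and 0.985, rho = 0.855 and 0.406), which are also low in aerosol library 5. The coefficients over 10 libraries include the group difference and the library effects described above. With each group's mean taken out, Pearson r ran from 0.850 (ZNF117 with CYP1A1) to 0.988 (QPRT with CYP1B1). Library effects within a group remain in these values.

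**Figure D5:**
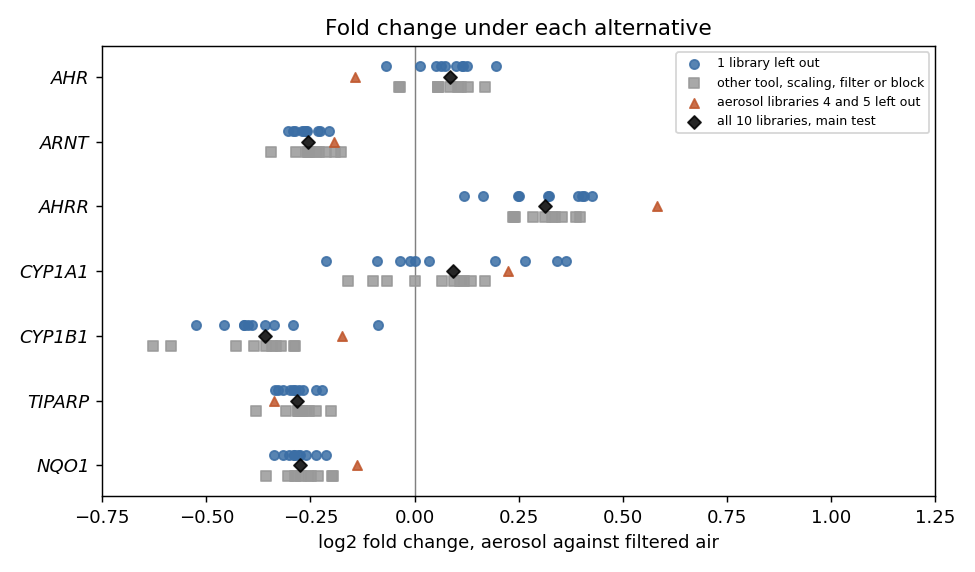
Log2 fold change of each gene, aerosol against filtered air (x axis), with all 10 libraries (black), with 1 library left out (blue), with another tool, scaling, filter or block (gray) and without aerosol libraries 4 and 5 (triangles). ARNT, TIPARP, NQO1 and CYP1B1 stay below 0 and AHRR above 0 under each, AHR and CYP1A1 fall on both sides, and no adjusted p came under 0.0946.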

How the data were processed

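Messenger RNA of AC16 cells was counted in 10 libraries, 5 exposed to filtered air and 5 to e-cigarette aerosol, and the labels gave each library's group and number. The authors deposited 1 whole-number count per Ensembl gene and library. The labels name TRIzol extraction and a SMARTER mRNA kit. Per the submitters' processing notes, HISAT, featureCounts 1.5.0-p3, DESeq 1.8.3 and hg38 were used, without roles or settings. The treatment of reads shared between genes is not stated there. Counts were used as deposited, and the 10 miRNA libraries were not analysed here.

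The members and the gene lists were chosen with earlier results of these data known. Symbols came from the files and a table of Ensembl identifiers that matched 58207 of them, and positions by symbol from RefSeq genes of GRCh38.p14, the same build as hg38. The start-site table held windows for 6 of the 7 members. No 2 libraries agreed within sampling noise, with a chi-square of at least 64.3 per degree of freedom. The test was edgeR 4.0.16 (R 4.3.3) with TMM scaling, filterByExpr and a robust quasi-likelihood F test on the group alone, adjusted over all 20166 genes it kept of 58735. A gene changed where its adjusted p was under 0.05. The procedure was tested on simulated data. Standard errors and 95% intervals were worked out from each gene's F statistic. Levels are CPM on the TMM-adjusted library size, and correlations used log2(CPM + 0.5).

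Named genes were the 7 members, from each list up to 4 changed genes, taken by lowest p, or else the 2 with the highest level, and the 2 genes most like each member. Beyond that rule PARP1, PARP9 and genes given for low counts were named after their values were seen. So were genes at an unadjusted p under 0.05 in the NRF2, fibroblast, cardiomyocyte, bHLH-PAS, coactivator, further target, quinone reductase, electron donor and tryptophan lists. For endothelium and epithelium the rule's genes were all near 1 CPM or below and are given as sums. Alternatives were RLE, upper-quartile and library-size scaling, scaling without mitochondrially encoded genes, MALAT1 and NEAT1, DESeq2 1.42.0, limma-voom (limma 3.58.1) with and without quality weights, 2 other filters, a replicate block, each library left out, and aerosol libraries 4 and 5 left out together.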

Additional observations from a re-analysis of the deposited data

Results flagged for a closer look

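A check covered 66 groups of 5 libraries, each condition taken separately. It took in the members, the genes that the naming rule drew from the lists, cell type markers included, and 3 library measures. A library was noted where its gap to the nearest other exceeded 0.710 of the group's range. Chance gives such a gap in about 1 of 20 groups, and 5 were found. CYP1B1 was at 4.90 CPM in aerosol library 5, with the other 4 aerosol libraries between 35.3 and 46.9 CPM. MALAT1 was at 44762 CPM in the same library, with the others between 7486 and 16390 CPM. DDB1 was at 282 CPM in aerosol library 1, against 231 to 245 CPM in the rest of its group. PARP14 was at 81.3 CPM in filtered air library 5, against 70.4 to 72.7 CPM. PTPRC, a leukocyte gene, was at 0.357 CPM in filtered air library 2, against 0.00 to 0.0870 CPM.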

How the results depend on the processing

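No member passed an adjusted p of 0.05 under any of the 21 alternatives, and the lowest was 0.0946, for NQO1 without e-cigarette aerosol replicate 2 (edgeR). ARNT, TIPARP, NQO1 and CYP1B1 stayed below 0 and AHRR above 0 in all 21. AHR changed sign by library size alone (-0.034), with limma-voom quality weights (-0.037) and without aerosol replicates 4 and 5 (-0.14), and leaving out 1 library gave -0.068 to 0.19. CYP1A1 changed sign with limma-voom (-0.065), its quality weights (-0.16) and the replicate block (-0.10), and leaving out 1 library gave -0.21 to 0.36. The cause was not tested. The count of 608 changed genes was 1957 by DESeq2 and 1128 with limma-voom quality weights, and 183 to 757 with 1 library left out. It was 231, 187, 183 and 227 without filtered air replicates 1 to 4, and 262 and 309 without e-cigarette aerosol replicates 3 and 4. With the replicate block it was 450, of which 352 had been called without it. Same-numbered libraries deviated together with correlations of 0.00874 to 0.0871, and 1 of 5 filtered air and 2 of 5 aerosol libraries correlated best with their own number, so the numbers are not taken as pairs. CYP1A1 rests on 16 to 144 counts per library, and its coefficient of variation between libraries was 48.6% in filtered air and 63.0% after the aerosol.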

Other observations

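CYP1B1 was not alone in aerosol library 5. Of 10952 genes with at least 5 CPM in the other 4 aerosol libraries, 56, CYP1B1 included, were at least as low in library 5 against the mean of the other 4 as CYP1B1, whose log2 difference was -2.89. QPRT, an enzyme of NAD synthesis from tryptophan, was at 48.3, 46.5, 37.0 and 59.0 CPM in aerosol libraries 1 to 4, at 4.09 CPM in library 5 and at 51.4 to 65.5 CPM in filtered air. The tested protein-coding neighbours of CYP1B1 on chromosome 2 were not low there. RMDN2 was at 6.42 CPM in aerosol library 5 and at 3.69 to 6.00 CPM in the other 4, and ATL2, a membrane-shaping GTPase of the endoplasmic reticulum, was at 78.4 CPM and at 45.5 to 79.2 CPM.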
